A study of Homo sapiens with 9 samples.

Results

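The metallothionein genes are a family of small, closely related genes whose products bind metal ions. 7 of them were chosen by name, MT2A, MT1X, MT1E, MT1F, MT1G, MT1M and MT1A, among the 64253 gene rows of the count files, and each symbol had 1 Ensembl identifier with counts. 5 of the 7 had enough reads to be tested, among 16561 such genes. MT1G and MT1A did not and are given as counts. The files hold 21 metallothionein rows in all, pseudogenes included.

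RNA was measured in IMR90 cells, an established line of human fetal lung fibroblasts that stops dividing after a limited number of doublings, in 3 groups of 3 libraries named a, b and c. The vector control carried pLKO.1, a lentiviral vector without a targeting hairpin (empty per the sample labels, GFP per the protocol). The shRRM2 cells carried a short hairpin RNA against RRM2, a subunit of the ribonucleotide reductase that supplies deoxyribonucleotides, and the labels call them senescent. The shRRM2/shp16 cells carried that hairpin plus one against p16, the cell cycle inhibitor made from CDKN2A, and the labels say that they bypassed senescence. All groups were used at population doubling 30, were grown in 2% oxygen, received 2 infections 24 hours apart and were selected with puromycin for 7 days. No group received the p16 hairpin alone, and each arm used 1 line. The labels do not say whether the replicates were separate cultures, so the spread between these libraries may be technical. The tests also pool information on spread over all genes, so p-values and standard errors (SE) do not measure a gene's own spread alone.

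Metallothioneins are short proteins without a fixed fold, rich in cysteines that hold zinc, copper or cadmium in metal-thiolate clusters. Their genes are switched on by metals through the zinc-sensing transcription factor MTF1, which binds metal response elements in their promoters, and several are also induced by glucocorticoids and oxidative stress. In fibroblasts they buffer free zinc and copper, and MT2A is usually the most abundant of the human genes.

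The likeness of the members bears on every count below, because reads that fit several copies equally well are not assigned to any of them. The coding sequences of the 3 members with the most counts follow, 5′ to 3′, from the GENCODE 29 transcripts on GRCh38, and capitals mark the bases that differ from MT2A.
MT2A: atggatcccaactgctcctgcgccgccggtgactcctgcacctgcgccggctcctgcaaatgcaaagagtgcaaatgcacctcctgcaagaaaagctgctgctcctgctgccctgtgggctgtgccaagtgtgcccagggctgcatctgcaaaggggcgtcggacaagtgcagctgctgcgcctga
MT1E: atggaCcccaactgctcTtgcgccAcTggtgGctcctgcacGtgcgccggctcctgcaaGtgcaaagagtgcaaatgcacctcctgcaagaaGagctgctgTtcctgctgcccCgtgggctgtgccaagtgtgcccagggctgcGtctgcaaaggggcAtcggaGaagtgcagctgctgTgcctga
MT1X: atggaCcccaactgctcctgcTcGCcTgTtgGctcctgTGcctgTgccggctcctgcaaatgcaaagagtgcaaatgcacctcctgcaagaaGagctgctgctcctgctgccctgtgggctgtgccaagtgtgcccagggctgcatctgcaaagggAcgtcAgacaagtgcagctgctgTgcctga
MT1E and MT1X were each identical to MT2A at 172 of 186 aligned bases (92.5%). All 7 coding sequences held 20 cysteine codons, among 61 codons in each member but MT1G, which had 62. Identity to MT2A was 89.8% for MT1M, 91.4% for MT1F, 92.5% for MT1A and 93.7% for MT1G. Over the whole transcripts, which include untranslated parts, 95.1% of the 50-base windows of MT2A occurred in no other gene's transcript, as did 94.7% for MT1E, 96.4% for MT1F, 92.9% for MT1M, 94.2% for MT1A and 79.8% for MT1G. The share was 54.9% for MT1X, which shared 117 windows with AC026461.1, an annotated transcript on the same strand that overlaps it and had 0 counts in all 9 libraries. Levels of MT1X in particular may therefore be undercounted.

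The genes lie side by side on chromosome 16 (GRCh38, GENCODE 29). MT2A spans chr16:56608199-56609497, MT1E chr16:56625475-56627112, MT1M chr16:56632233-56633986, MT1A chr16:56638666-56640087, MT1F chr16:56657694-56660698 and MT1X chr16:56682424-56684196, all on the plus strand. MT1G, at chr16:56666731-56668065, is the member on the minus strand. Between MT2A and MT1E lies MT1L, a transcribed pseudogene at chr16:56617476-56618818.

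Among the 7 members, RefSeq promoter windows (GRCh38.p14) were at hand for MT2A and MT1X. Both were searched over the 250 bases before the start, because metal response elements are the known control sites of these genes. The core of a metal response element was searched as TGCACNC or TGCGCNC on both strands. The 204 bases of the MT1X window that lie before every annotated start, chr16:56682220-56682423 on the plus strand, hold 4 such cores, shown in capitals.
MT1X promoter: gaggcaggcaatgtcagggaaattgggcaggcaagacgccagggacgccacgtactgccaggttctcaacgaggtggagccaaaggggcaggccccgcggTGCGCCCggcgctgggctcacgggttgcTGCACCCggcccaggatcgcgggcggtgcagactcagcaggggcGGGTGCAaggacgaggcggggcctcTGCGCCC
MT2A had 7 cores in its window, 5 of the TGCACNC form and 2 of the TGCGCNC form. The start used here is RefSeq's. A GENCODE transcript of MT2A begins farther upstream, so the whole MT2A window lies within annotated exon sequence of the gene, with 0 of its bases outside. The pair of windows below, at chr16:56608489-56608509 and chr16:56608523-56608543, show those 88 and 54 bases before the RefSeq start, again with the core in capitals.
MT2A site at 88 bases: gcggggcGTGTGCAggcagcg
MT2A site at 54 bases: gggctttTGCACTCgtcccgg
Of 35116 RefSeq promoter windows of this length, 24.8% held at least 1 core, 1.58% at least 3 and 0.12% at least 5. Outside the members, the windows of MT1H, MT4 and MT1B held 8, 3 and 3 cores. MT1H had at most 1 count in any library, and MT4 and MT1B had 0. Each of the MT2A and MT1X windows also held 1 antioxidant response element core (TGACNNNGC, found in 10.9% of all windows). Neither held the glucocorticoid half-site TGTTCT, which 12.4% of windows hold. Only this exact sequence within these 250 bases was searched, so other forms or farther sites were not looked for.

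The libraries held 15770895 to 24873291 gene counts. RRM2 was at 485 ± 5.23 CPM (counts over the TMM-scaled library size, on the usual CPM scale; mean ± SD, n = 3) in vector control, 62.1 ± 1.86 in shRRM2 and 177 ± 3.00 in shRRM2/shp16 cells, and CDKN2A at 6.02 ± 0.113, 6.50 ± 0.464 and 4.28 ± 0.321. RRM2 was thus less reduced in the double-hairpin cells. The 10 fibroblast markers summed to 29500 to 41900 CPM per library. Epithelial markers summed to 1.42 to 3.39, endothelial markers to 0.894 to 2.48, leukocyte markers to 0.126 to 0.698, and kidney and hepatocyte markers to at most 0.19, with KRT5, CD3E and UMOD at 0 counts in every library. Reads that the counting assigned to no feature were 17.6% to 18.9% of uniquely aligned reads in vector control. They were 27.7% to 28.8% in shRRM2 and 23.5% to 24.4% in shRRM2/shp16 libraries. That share may include reads within introns of genes as well as reads between genes. It moved with the groups, and its part in the results was not tested.

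Metallothionein RNA in these cells was mostly MT2A. Summed over the 7 members, it was 641 ± 51.7 CPM in vector control, 995 ± 149 in shRRM2 and 851 ± 35.1 in shRRM2/shp16 cells (SD, n = 3), which was 0.0619%, 0.0989% and 0.0882% of all gene counts. By library the sum was 699.4, 600.7 and 623.1 CPM in vector control a, b and c, 1025, 1125 and 833.1 in shRRM2, and 880.9, 859.6 and 812.3 in shRRM2/shp16. Every library with the RRM2 hairpin lay above every vector control library, whereas shRRM2 replicate c fell among the shRRM2/shp16 libraries. The ratio of means was 1.55 for shRRM2 over control, 1.33 for shRRM2/shp16 over control and 0.856 for shRRM2/shp16 over shRRM2. The last of these, −0.23 on the log2 scale, was −0.13 without shRRM2 replicate b and −0.34 without shRRM2 replicate c. In bulk RNA, fewer expressing cells and less RNA per cell cannot be told apart.

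MT2A made up 89.4%, 88.3% and 89.4% of the family counts in the 3 groups, MT1E 9.34%, 10.9% and 9.02%, and MT1X 1.0%, 0.559% and 1.30%. MT1F, MT1G, MT1M and MT1A together made up 0.22%, 0.178% and 0.318%. Per length, as RPKM on the exon lengths of the annotation, vector control cells had 441 of MT2A, 56.8 of MT1E, 3.64 of MT1X, 1.12 of MT1A, 0.369 of MT1M, 0.233 of MT1F and 0.23 of MT1G. MT2A, MT1E and MT1X kept this order in all groups, each apart from the next by more than the spread between libraries; the RPKM values of MT1F and MT1G rest on a few counts and did not differ beyond their spread in vector control.

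**Figure D1:**
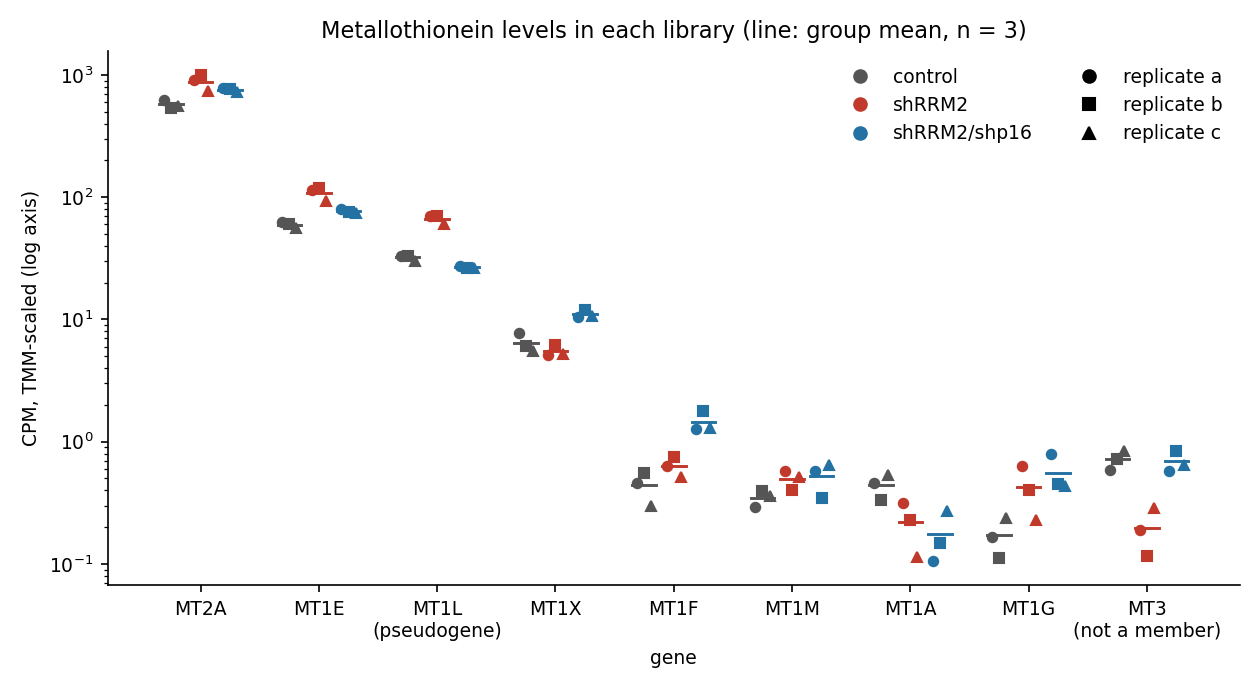
CPM (TMM-scaled, log axis) of the 7 members, the pseudogene MT1L and MT3 in each of the 9 libraries, with the group mean as a line. MT2A lies between 533 and 998 CPM, MT1E between 56.3 and 119, and MT1X between 5.08 and 11.9, while the other members reach at most 1.79 CPM.

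RRM2-depleted cells had more RNA of the 2 most abundant members than vector control cells, by 1.53-fold for MT2A and 1.81-fold for MT1E, and MT1X was not called. In shRRM2 against vector control, 60.9% of all tested genes passed an adjusted p of 0.05 (29.0% higher, 31.8% lower). Of the 5 tested members, 2 were higher (MT2A and MT1E), 0 were lower and 3 did not pass. On the libraries of this comparison alone, MT1F and MT1M would not have had enough reads to be tested. With so large a share of all genes called, the calls do not set the family apart. The median fitted log2 fold change was 0.52 over the tested members and 0.00 over all tested genes. The former is the value of MT1M, which had 6 to 12 counts per library and was not called, so it does not show a shift of the family. All tests named here are edgeR's quasi-likelihood test with Benjamini-Hochberg adjustment over the 16561 genes, fold changes are given with their SE, and each group has 3 libraries.

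MT2A (ENSG00000125148), the main metallothionein of most human cells, was at 627, 533 and 560 CPM in vector control a, b and c, at 904, 998 and 734 in shRRM2, and at 787, 770 and 724 in shRRM2/shp16. The vector control libraries were the lowest and shRRM2 replicates a and b the highest, with shRRM2 replicate c inside the range of the shRRM2/shp16 libraries. In shRRM2 cells it was higher than in vector control by 0.61 ± 0.05 on the log2 scale, or 1.53-fold (edgeR adjusted p = 1.8e-13). DESeq2 gave 0.6 with an adjusted p of 8.8e-06, and leaving out 1 library at a time gave 0.52 to 0.74.

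MT1E (ENSG00000169715), a metal-binding isoform like the other MT1 genes, was at 62.7, 60.1 and 56.3 CPM in vector control, at 114, 119 and 92.3 in shRRM2, and at 80.4, 75.0 and 74.8 in shRRM2/shp16. The 3 groups did not overlap, with shRRM2 highest and vector control lowest. Its rise in shRRM2 cells was 0.85 ± 0.06 on the log2 scale, or 1.81-fold (edgeR adjusted p = 2.6e-17). MT1E counts per 100 MT2A counts were 10.4 ± 0.726 in vector control and 12.4 ± 0.396 in shRRM2 cells, with no overlap between the groups.

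MT1X (ENSG00000187193), an isoform farther along the cluster, went the other way in value without passing the test. It was at 7.79, 6.09 and 5.48 CPM in vector control, 5.08, 6.23 and 5.22 in shRRM2, and 10.5, 11.9 and 10.7 in shRRM2/shp16. Vector control and shRRM2 libraries overlapped, and all shRRM2/shp16 libraries were above both. The fitted difference of shRRM2 from vector control was −0.25 ± 0.13 on the log2 scale (edgeR adjusted p = 0.0901). It passed the threshold without control replicate c (−0.36, adjusted p = 0.0235) or without shRRM2 replicate b (−0.35, adjusted p = 0.0425), and was −0.07 without control replicate a.

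Ratios within a library were also formed. MT1X counts per 100 MT2A counts were 1.242, 1.143 and 0.9789 in vector control and 0.5618, 0.624 and 0.7113 in shRRM2, so that no shRRM2 library reached a vector control library. Per 100 MT1E counts they were 10.8 ± 1.45 and 5.12 ± 0.614 (SD, n = 3). These ratios are given as a description, and no test was run on them.

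MT1F and MT1M were near the limit of counting. MT1F (ENSG00000198417) had 11, 10 and 5 counts in vector control and 10, 13 and 9 in shRRM2, and its groups overlapped in CPM; the fitted log2 fold change was 0.51 ± 0.39 (edgeR adjusted p = 0.263). MT1M (ENSG00000205364) had 7, 7 and 6 counts in vector control and 9, 7 and 9 in shRRM2, with a fitted log2 fold change of 0.52 ± 0.44 (edgeR adjusted p = 0.303). Its 3 CPM values in shRRM2 all lay above those in vector control, and at this depth a difference was not detectable by the test.

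The untested members also had few counts. MT1G (ENSG00000125144) had 4, 2 and 4 counts in vector control, 10, 7 and 4 in shRRM2 and 15, 9 and 8 in shRRM2/shp16. Summed, that was 10, 21 and 32 counts, or 0.165 CPM of the unscaled totals (exact Poisson 95% interval 0.079 to 0.303), 0.413 (0.256 to 0.632) and 0.576 (0.394 to 0.813), where the intervals cover counting error only. MT1A (ENSG00000205362) had 11, 6 and 9 counts in vector control, 5, 4 and 2 in shRRM2 and 2, 3 and 5 in shRRM2/shp16, and its vector control libraries lay above the others in CPM. With the low-count filter removed, MT1G in shRRM2/shp16 against vector control was the comparison of these 2 genes that passed (log2 fold change 1.64, edgeR adjusted p = 0.00654), and MT1A there had −1.34 (edgeR adjusted p = 0.0581).

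**Figure D2:**
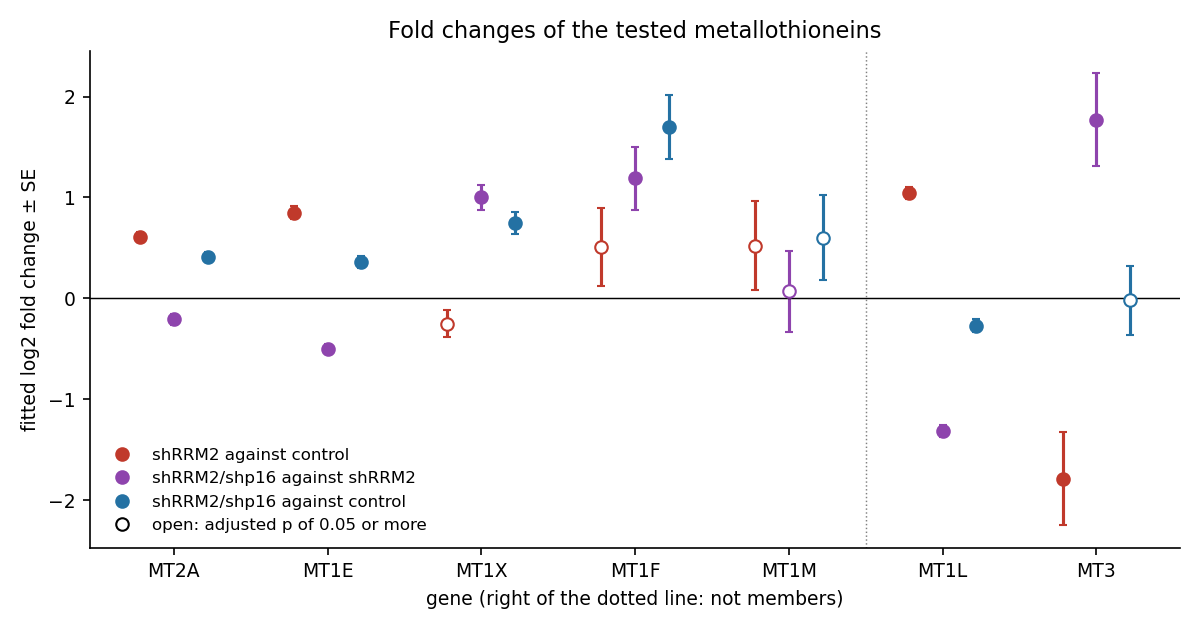
Fitted log2 fold changes with their SE for the 5 tested members and for MT1L and MT3, in the 3 comparisons (edgeR, 9 libraries). Filled points passed an adjusted p of 0.05; MT2A and MT1E are above 0 against vector control and below 0 in shRRM2/shp16 against shRRM2, where MT1X and MT1F are above 0.

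Between RRM2-depleted cells with and without the p16 hairpin, members differed in opposite directions: MT1X was higher with it and MT1E lower. MT1F was also called higher, on few counts, and MT2A lower, a call that several alternative fits did not make. RRM2 itself was at 62.1 CPM in shRRM2 and 177 in shRRM2/shp16 cells, so the p16 hairpin and the higher RRM2 level cannot be told apart here. In shRRM2/shp16 against shRRM2, 61.1% of tested genes were called (31.9% higher, 29.1% lower). Of the 5 tested members, MT1X and MT1F were higher, MT2A and MT1E lower, and MT1M did not pass. The median, which is the value of MT1M, was 0.07, beside 0.01 over all tested genes. With so large a share of all genes called, 4 calls among 5 genes do not set the family apart. The shRRM2 libraries enter both this comparison and the preceding one, so a fall here beside a rise there is not an independent observation.

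MT1X was 2.0-fold higher, a log2 fold change of 1.0 ± 0.12 (edgeR adjusted p = 8.1e-10), and the groups did not overlap. MT1F had 10, 13 and 9 counts in shRRM2 and 24, 36 and 24 in shRRM2/shp16, again without overlap, with a log2 fold change of 1.19 ± 0.31 (edgeR adjusted p = 8.1e-04). MT1F passed the low-count filter only through the shRRM2/shp16 libraries, where it is high, since the vector control and shRRM2 libraries alone do not pass it, so its place in the count of called members supports nothing. MT1E fell by 0.50 ± 0.05 on the log2 scale, with all 3 shRRM2/shp16 libraries below all shRRM2 libraries (edgeR adjusted p = 1.1e-10).

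MT2A had a log2 difference of −0.21 ± 0.05 (edgeR adjusted p = 7.2e-04), with overlapping groups. That call was lost without shRRM2 replicate b (−0.11, adjusted p = 0.0632), with DESeq2 (adjusted p = 0.206) and with limma on the deposited log2 RPKM (adjusted p = 0.182) or on log2(RPKM + 0.1) (adjusted p = 0.0866), and the difference was −0.32 without shRRM2 replicate c. Both limma fits use the deposited column of shRRM2 replicate c, which does not match that library's counts; with the 8 matching columns limma on log2(RPKM + 0.1) gave −0.26 (adjusted p = 0.00934). MT1M had 9, 7 and 9 counts in shRRM2 and 11, 7 and 12 in shRRM2/shp16, with a fitted log2 fold change of 0.07 (edgeR adjusted p = 0.889).

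For this comparison the authors' deposited table gives their own log2 fold changes. In the authors' deposited table, whose header names the double-hairpin cells first, MT1X was at 0.99 and MT1E at −0.47, both significant (q = 0.000444). The authors' deposited table did not call MT2A (−0.18, q = 0.108) or MT1F (1.16, q = 0.156).

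In the same ratios, also without a test, MT1X counts per 100 MT2A counts were 1.329, 1.546 and 1.485 in shRRM2/shp16, above every library of the other groups, and per 100 MT1E counts they were 14.4 ± 1.44 beside 5.12 ± 0.614 in shRRM2. MT1E counts per 100 MT2A counts were 10.1 ± 0.315 in shRRM2/shp16, overlapping vector control (10.4 ± 0.726) and below all shRRM2 libraries.

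**Figure D3:**
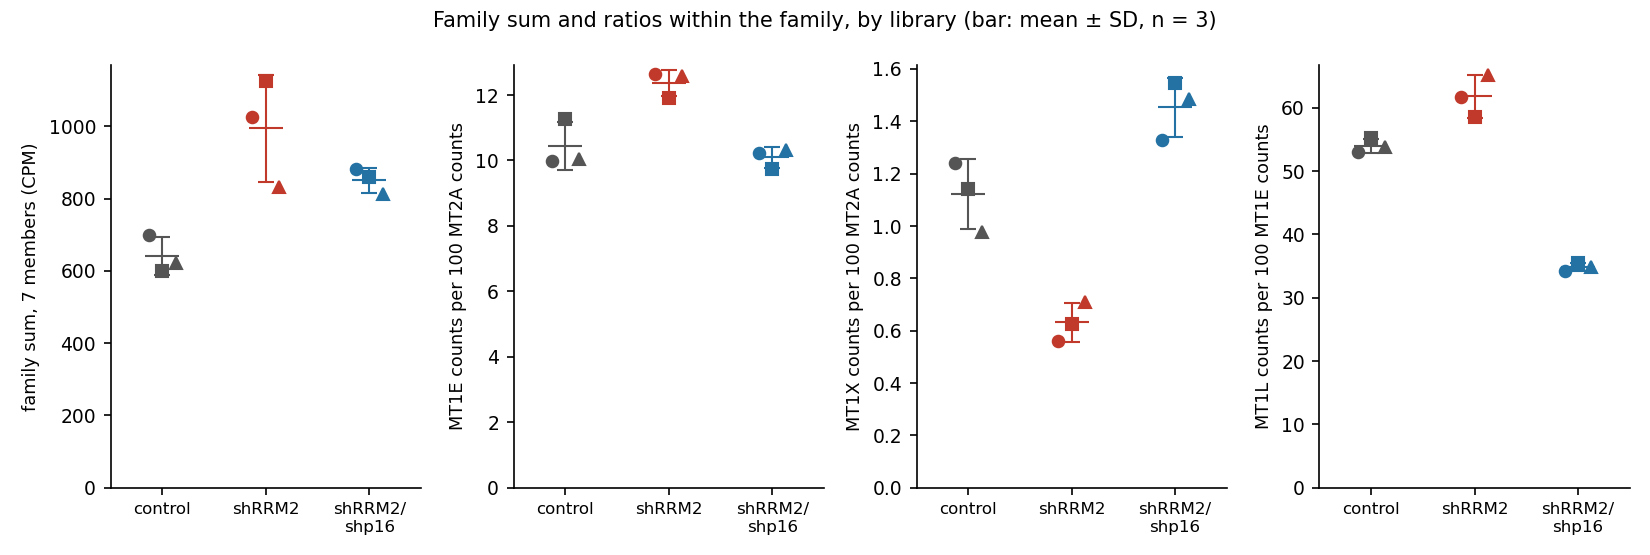
The family sum in CPM and 3 ratios of counts within the family, by library, with mean ± SD for each group; all axes start at 0. MT1X per 100 MT2A is 0.5618 to 0.7113 in shRRM2 and 1.329 to 1.546 in shRRM2/shp16, and MT1L per 100 MT1E is highest in shRRM2 and lowest in shRRM2/shp16.

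Against vector control, the double-hairpin cells had more RNA of MT2A, MT1E and MT1X, and of MT1F on few counts. In shRRM2/shp16 against control 62.4% of tested genes were called (30.0% higher, 32.4% lower). MT2A, MT1E, MT1X and MT1F were higher, 0 members were lower and MT1M did not pass. With so large a share of all genes called, these calls do not set the family apart. MT1F passed the low-count filter only through the shRRM2/shp16 libraries, where it is high, so its place in the count supports nothing. The libraries of this comparison alone would not have passed MT1M. The median log2 fold change was 0.60, again the value of MT1M, beside 0.01 over all tested genes. MT2A was higher by 0.41 ± 0.05 (edgeR adjusted p = 9.0e-09) and MT1E by 0.36 ± 0.06 (edgeR adjusted p = 7.2e-07) on the log2 scale. MT1X was higher by 0.75 ± 0.11 (edgeR adjusted p = 1.2e-07), and MT1F by 1.70 ± 0.32 (edgeR adjusted p = 1.0e-05), on 5 to 36 counts per library. None of these 4 overlapped between the groups. The share of all tested genes without overlap was not computed, so this does not set the members apart. MT1M was at 0.60 ± 0.42 (edgeR adjusted p = 0.218).

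Of the 14 metallothionein rows outside the 7 members, MT1L and MT3 were tested. MT1L, the pseudogene between MT2A and MT1E, was at 33.3, 33.2 and 30.3 CPM in vector control, 70.5, 69.6 and 60.2 in shRRM2 and 27.5, 26.6 and 26.1 in shRRM2/shp16, and the 3 groups did not overlap. It was 2.06-fold higher in shRRM2 than in vector control (log2 1.04 ± 0.06, edgeR adjusted p = 1.5e-20). With the p16 hairpin added it fell by 1.32 ± 0.06 on the log2 scale (edgeR adjusted p = 7.5e-24).

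MT1L also ended below vector control, at −0.27 ± 0.06 (edgeR adjusted p = 1.8e-04), a call that limma on the deposited log2 RPKM (adjusted p = 0.393) and on log2(RPKM + 0.1) (−0.17, adjusted p = 0.115) did not make and limma on the 8 matching columns did (adjusted p = 0.00474). MT1L counts per 100 MT1E counts were 54.0 ± 1.10 in vector control, 61.8 ± 3.37 in shRRM2 and 34.9 ± 0.626 in shRRM2/shp16, with no overlap between any of the groups. At 50 bases, 95.6% of MT1L windows occurred in no other gene's transcript.

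MT3, a metallothionein known chiefly from the brain, had 14, 13 and 14 counts in vector control, 3, 2 and 5 in shRRM2 and 11, 17 and 12 in shRRM2/shp16. It was lower in shRRM2 than in vector control (log2 −1.79 ± 0.46, edgeR adjusted p = 9.0e-04) and higher in shRRM2/shp16 than in shRRM2 (1.77 ± 0.46, edgeR adjusted p = 0.00104), on very few counts. The vector control and shRRM2 libraries alone would not have passed it through the filter. The pseudogene MT1JP had 1 to 9 counts per library; MT1H, MT1P1, MT1P3 and MT1XP1 had at most 3; and MT4, MT1B, MT1CP, MT1DP, MT1HL1, MT1IP and MT2P1 had 0 in all 9.

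**Figure D4:**
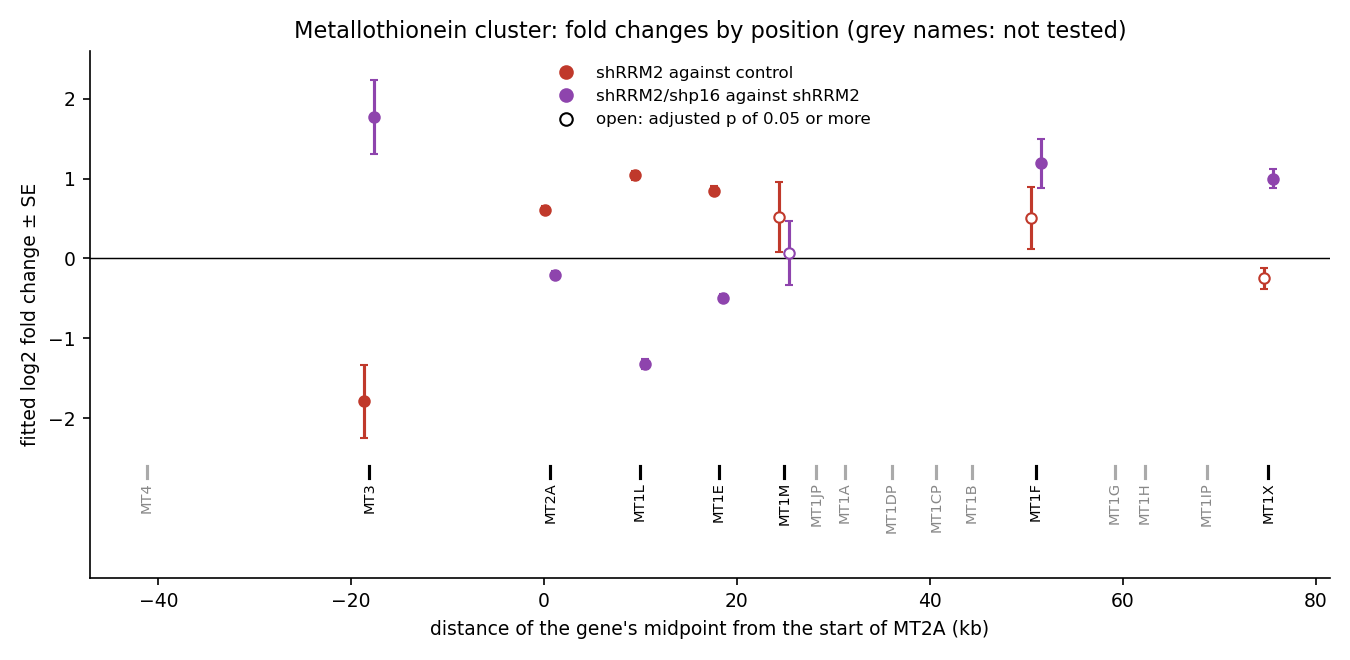
Fitted log2 fold changes with SE for the tested genes of the cluster, placed by the distance in kb of the gene's midpoint from the start of MT2A, for shRRM2 against control and shRRM2/shp16 against shRRM2. MT2A, MT1L and MT1E were higher, then lower, although several alternative fits did not call MT2A in the latter comparison. MT1F and MT1X, farther along, were called higher in the latter and not called in the former. MT3, on the other side of MT2A, was called lower, then higher, on 2 to 17 counts per library. MT1M, next along from MT1E, was called in neither.

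The genes that flank the cluster were taken as a list of 11, of which 8 were tested, MT3 among them. In shRRM2 cells 3 rose (BBS2, OGFOD1 and HERPUD1) and 4 fell (NUDT21, GNAO1, NUP93 and MT3) against vector control, where 29.0% and 31.8% of all tested genes did, and the median was −0.22 beside 0.00 over all tested genes. GNAO1 rests on 3 to 21 counts, and its call (edgeR adjusted p = 0.0216) was lost with DESeq2, with limma and without control replicate a, shRRM2 replicate a or shRRM2 replicate c. In shRRM2/shp16 against shRRM2, MT3 was the 1 higher gene, and OGFOD1, NUP93 and HERPUD1 were among the lower ones, beside 31.9% and 29.1% of all tested genes. NUDT21, a subunit of the cleavage factor for mRNA 3′ ends, was at 95.4 ± 1.90, 68.3 ± 1.80 and 72.2 ± 0.555 CPM in the 3 groups and was lower in shRRM2 (log2 −0.48 ± 0.04, edgeR adjusted p = 5.3e-14). HERPUD1, an endoplasmic reticulum stress gene, had 0.40 in the former comparison and −0.16 in the latter (edgeR adjusted p = 7.4e-10 and 0.00215), and OGFOD1 had 0.14 and −0.55 (edgeR adjusted p = 0.00602 and 3.1e-14). OGFOD1 in shRRM2 against control was not called without the low-count filter, with DESeq2 or without shRRM2 replicate c.

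The metal regulator MTF1 rose in small steps. It was at 41.9, 43.4 and 40.4 CPM in vector control, 51.9, 43.6 and 47.3 in shRRM2, and 54.5, 54.7 and 52.8 in shRRM2/shp16. The groups did not overlap, although shRRM2 replicate b lay next to the vector control range. Its log2 fold change was 0.18 ± 0.05 in shRRM2 against control (edgeR adjusted p = 0.00343), 0.18 ± 0.05 in shRRM2/shp16 against shRRM2 (edgeR adjusted p = 0.00201) and 0.37 ± 0.05 in shRRM2/shp16 against control (edgeR adjusted p = 4.3e-08). The first was 0.12 without shRRM2 replicate a (adjusted p = 0.0657) and was not called by limma on the deposited log2 RPKM (adjusted p = 0.059).

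Zinc transporters were called in both directions. Of 11 exporter genes 6 were tested; in shRRM2 3 were higher (SLC30A4, SLC30A5 and SLC30A7) and 1 lower (SLC30A9) than in vector control, and in shRRM2/shp16 2 were higher (SLC30A1 and SLC30A7) and 2 lower (SLC30A4 and SLC30A9) than in shRRM2. These 4 of 6 calls stand beside 60.9% and 61.1% of all tested genes called in the 2 comparisons. The call of SLC30A9 in shRRM2 (log2 −0.10, edgeR adjusted p = 0.0302) was lost with RLE size factors, with limma and without any one of the 3 shRRM2 libraries. SLC30A1, the exporter at the plasma membrane that is itself a metal-induced gene, was at 62.5 ± 3.92 CPM in vector control, 60.0 ± 4.93 in shRRM2 and 73.7 ± 3.24 in shRRM2/shp16. It was not called in shRRM2 against control (log2 −0.06, edgeR adjusted p = 0.362) and was higher in shRRM2/shp16 than in shRRM2 (0.30 ± 0.05, edgeR adjusted p = 2.1e-06). SLC30A4, a vesicular exporter, was at 18.7, 26.8 and 14.0 CPM in the 3 groups, with log2 fold changes of 0.52 ± 0.07 and −0.93 ± 0.07 (edgeR adjusted p = 8.8e-09 and 2.9e-15).

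Of 14 zinc importer genes 10 were tested. In shRRM2 against control 3 were higher (SLC39A14, SLC39A10 and SLC39A13) and 0 lower, beside 29.0% and 31.8% of all tested genes. In shRRM2/shp16 against shRRM2 4 were higher (SLC39A14, SLC39A6, SLC39A8 and SLC39A9) and 3 lower (SLC39A3, SLC39A10 and SLC39A13), beside 31.9% and 29.1% of all tested genes. SLC39A14, an importer of zinc, iron and manganese, rose from 84.4 ± 2.76 CPM in vector control to 103 ± 4.39 in shRRM2 (log2 0.29 ± 0.04, edgeR adjusted p = 2.7e-08) and to 182 ± 3.67 in shRRM2/shp16 (0.82 ± 0.04 over shRRM2, edgeR adjusted p = 1.9e-23). SLC39A13, an importer of the secretory pathway, was at 90.9, 134 and 86.8 CPM, and SLC39A10, at the plasma membrane, at 108, 132 and 88.2, so both were highest in shRRM2 cells. SLC39A8, a further zinc importer, had 11 to 49 counts and was higher in shRRM2/shp16 than in shRRM2 (0.89 ± 0.24, edgeR adjusted p = 0.00134).

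All 12 copper-handling genes were tested. In shRRM2 against control 3 were higher (SLC31A1, SLC31A2 and ATP7B) and 5 lower (ATP7A, COX17, SCO1, CUTC and SOD1), with a median of −0.12, and 8 of 12 called is near the 60.9% of all tested genes. With the p16 hairpin added 6 were higher and SLC31A2 was the 1 lower gene, with a median of 0.18, beside 31.9% and 29.1% of all tested genes. SLC31A1, the high-affinity copper importer, rose at each step, from 77.5 ± 1.29 to 130 ± 3.97 and 160 ± 2.96 CPM (log2 0.74 ± 0.04 and 0.30 ± 0.03, edgeR adjusted p = 2.1e-21 and 3.5e-10). ATP7A, a copper-exporting ATPase, was at 50.2, 41.8 and 63.7 CPM, and SOD1, which uses copper and zinc, at 122, 100 and 95.1.

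**Figure D5:**
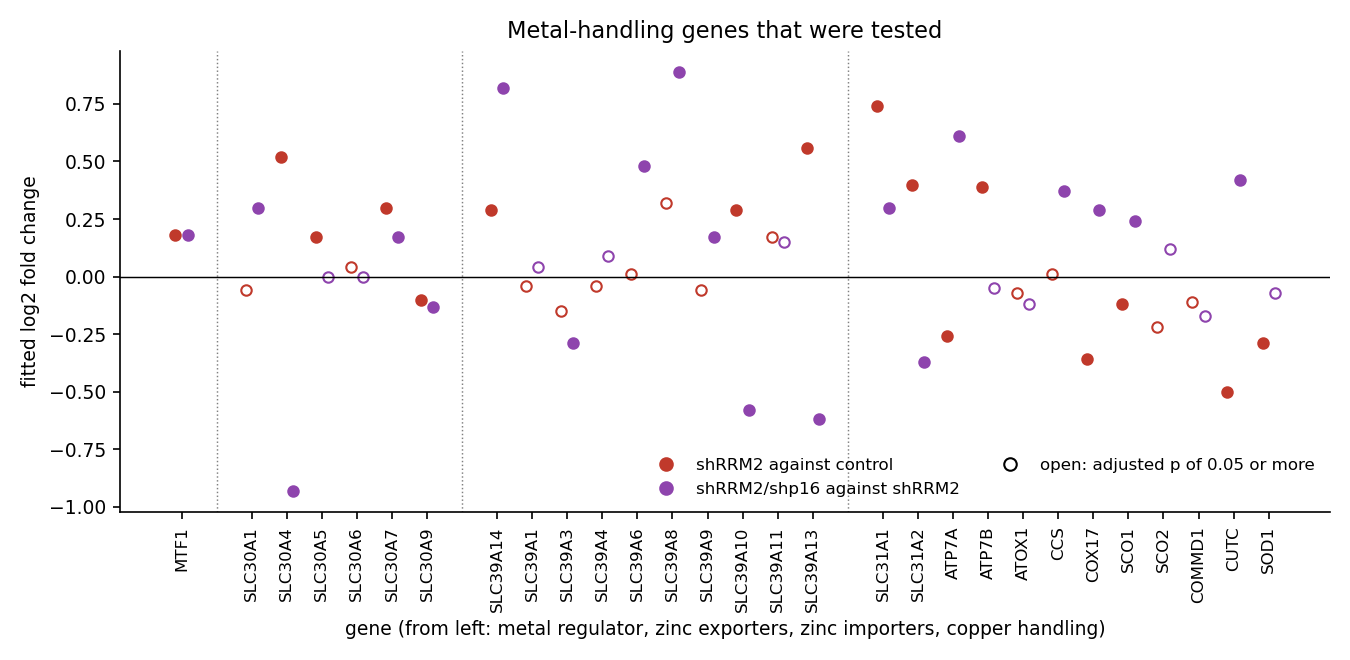
Fitted log2 fold changes of the tested metal-handling genes in 2 comparisons, shRRM2 with vector control and shRRM2/shp16 with shRRM2; filled points passed an adjusted p of 0.05. SLC39A14 and SLC31A1 are above 0 in both comparisons, while SLC30A4, SLC39A10 and SLC39A13 are above 0 in the former and below 0 in the latter.

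Glucocorticoid-responsive genes, of which metallothioneins are examples, were looked at as a list of 10 with 9 tested. In shRRM2 against control 2 were higher (KLF9 and HSD11B1) and 3 lower (FKBP5, NR3C1 and SGK1), with a median of 0.09, beside 29.0% and 31.8% of all tested genes. In shRRM2/shp16 against shRRM2 8 were higher and 1 lower (median 0.84), where 31.9% and 29.1% of all tested genes were called. In shRRM2/shp16 against control 8 were higher and 1 lower (median 0.50), beside 30.0% and 32.4% of all tested genes. The shRRM2/shp16 libraries enter both comparisons, so these counts are not independent observations. KLF9, a transcription factor induced by the glucocorticoid receptor, was at 13.6 ± 0.475, 21.8 ± 0.506 and 67.9 ± 2.55 CPM, with log2 fold changes of 0.68 ± 0.07 in shRRM2 and a further 1.64 ± 0.05 in shRRM2/shp16 (edgeR adjusted p = 2.8e-11 and 3.7e-28). FKBP5, a receptor co-chaperone often used as a readout of the receptor, was the exception, at 33.1 ± 1.80, 17.4 ± 0.870 and 11.1 ± 0.812 CPM, and was lower in all 3 comparisons.

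Heat shock genes, another stress list, had 10 tested of 12. In shRRM2 against control 8 fell and 1 rose (CRYAB, a small heat shock protein, log2 0.45 ± 0.06), and the median was −0.40, beside 29.0% of all tested genes higher, 31.8% lower and a median of 0.00. Between the hairpin groups 4 were higher in shRRM2/shp16 (HSPH1, HSPE1, HSPD1 and DNAJA1) and 5 lower (HSPB1, DNAJB1, BAG3, HSF1 and CRYAB), beside 31.9% and 29.1%. HSPA1A and HSPA1B, a pair of near-identical copies, had at most 1 and 6 counts and were not tested. Reads that fit both copies equally well are not counted, so these counts may not give their level.

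The genes whose pair of fold changes lay nearest to that of the family sum (0.63 and −0.22, by Euclidean distance over the 2 log2 fold changes) among the 11302 genes whose log2 CPM averaged 2 or more were RP11-274B21.2, GS1-124K5.11, ARHGAP26, NUTM2B-AS1 and TTLL3, at distances of 0.018 to 0.034. There were 44 genes within 0.1 of it. Their values, by which they were chosen, were 0.61 to 0.64 in shRRM2 against control and −0.26 to −0.20 in shRRM2/shp16 against shRRM2, on the log2 scale.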

How the data were processed

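RNA was sequenced from 9 IMR90 libraries, 3 per group. The authors deposited a table of raw counts by Ensembl identifier for every library, in the layout of HTSeq, and a table of log2 RPKM values with, per the file headers, a log2 fold change, a test statistic (score), a p-value and a q-value for shRRM2/shp16 against shRRM2. TopHat2 2.0.9, Cufflinks 2.0.2, Cuffdiff and GRCh38 are named in the submitters' processing notes. The annotation release and the strand setting of the counting are not given in the sources used here. Per the labels, RNA was ribosome-depleted and the kit stranded.

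Members were matched by symbol in the authors' table and by gene identifier in the count files; 56591 of 64253 identifiers were in GENCODE 29, which gave positions, lengths and coding sequences. Of all alignments tallied by the authors, 40.3% to 44.9% were not unique and are in no gene's count, and tally rows without a gene entered neither library sizes nor tests. Ambiguous reads were 3.74% to 6.02% of unique ones. The authors' table also has 2 columns of group values, which matched no sample by name and were not used.

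Genes were kept with filterByExpr (16561 genes, 99.8% of counts), scaled by TMM and tested with edgeR 4.0.16 (R 4.3.3, glmQLFit and glmQLFTest, 1 fit of all 9 libraries, 6 residual degrees of freedom, two-sided, Benjamini-Hochberg, threshold 0.05). SEs were computed by dividing the log2 fold change by the root of F. CPM divides counts by the TMM-scaled library size, and RPKM also by exon length. Alternatives were RLE size factors, DESeq2 1.42.0, other count filters, the 6 libraries compared, a replicate block, leaving out each library, and limma 3.58.1 on the deposited log2 RPKM and on log2(RPKM + 0.1). The deposited log2 RPKM equals log2(RPKM/1000 + 1), found by calculating back from the counts, which compresses low genes; the column of shRRM2 replicate c matched its counts within 2% for 12.6% of genes, against 99.5% to 100% in the other 8, so a fit without it was added after seeing the data. The fits were also run on simulated counts in which few genes changed. That run does not cover data in which most genes are called, as here. The members, the gene lists and the rule for named genes (members, other metallothioneins, the first gene and up to 4 largest called changes of each list, and the 5 most similar patterns) were chosen with earlier results of these data known; HERPUD1 and HSPA1B were named in addition after their values were seen. Read counts lack molecular identifiers.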

Additional observations from a re-analysis of the deposited data

How the results depend on the processing

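The counts of called members stayed within 1.5 times the reported ones under every alternative run: 2 to 3 in shRRM2 against control, 3 to 4 in shRRM2/shp16 against shRRM2 and 3 to 5 in shRRM2/shp16 against control. Leaving out 1 library at a time gave 9459 to 10125, 9520 to 10366 and 9744 to 10545 called genes in these comparisons, and log2 ratios of the family sum of 0.54 to 0.75, −0.34 to −0.13 and 0.36 to 0.48. Replicate letters did not pair the libraries: residuals of same-letter libraries correlated at −0.0198 to 0.0486, and 3 of 9 libraries correlated best with their own letter. With a replicate block, 10101, 10134 and 10388 genes and 2, 4 and 4 members were called, and no member's call changed. DESeq2 called 8398, 8486 and 8791 genes and limma on the deposited log2 RPKM 7515, 8534 and 9133. Over the named genes, 2668 of 2812 alternative values kept their direction and their side of the threshold, and 55, in 14 pairs of a gene and a comparison, changed sign. Of these 55, 2 belonged to a called difference: GS1-124K5.11 in shRRM2/shp16 against shRRM2 was at 0.00014 with limma on the deposited log2 RPKM and 0.09 with limma on log2(RPKM + 0.1), and its call was also lost with limma on the 8 matching columns (adjusted p = 0.418), with DESeq2 (0.151), without the low-count filter (0.0849) and without shRRM2 replicate b (0.0967), shRRM2 replicate c (0.114) or shRRM2/shp16 replicate b (0.153). The cause was not tested. The other sign changes were of differences that the main fit did not call, and the fits that changed the sign did not call them either. In shRRM2 against control, limma on the deposited log2 RPKM, on log2(RPKM + 0.1) and on the 8 matching columns gave 0.0011, 0.1 and 0.05 for SLC30A1, and the first 2 of these gave −0.00014 and −0.0049 for BAG3. Without the low-count filter SLC39A6, CCS and BAG3 were at −0.03 each, and with DESeq2 at −0.01 each. In shRRM2/shp16 against shRRM2 the 3 limma fits gave 0.00012, 0.01 and 0.02 for SLC30A5 (0.01 without the low-count filter) and −9.7e-06, −0.07 and −0.05 for GNAO1, and the first 2 gave 0.00011 and 0.06 for ATP7B and 1.1e-05 and 0.02 for ARHGAP26. For shRRM2/shp16 against control these fits gave 2e-05, 0.04 and 0.04 for MT3, 0.00068, 0.03 and 0.03 for SLC39A13 and 8.2e-05, 0.02 and 0.02 for CUTC, and SLC31A2 was at −0.00047 without the low-count filter. Leaving out 1 library at a time gave, in shRRM2 against control, −0.11 to 0.01 for SLC30A1, −0.02 to 0.04 for SLC39A6, −0.06 to 0.06 for CCS and −0.02 to 0.02 for BAG3. It gave −0.09 to 0.31 for MT1M, −0.04 to 0.04 for SLC30A5, −0.15 to 0.03 for ATP7B and −0.3 to 0.72 for GNAO1 in shRRM2/shp16 against shRRM2, and −0.19 to 0.1 for MT3 and −0.06 to 0.07 for SLC31A2 in shRRM2/shp16 against control. Depth limits MT1F, MT1M, MT1G, MT1A and MT3, which had at most 36 counts in any library.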
